A study of Mus musculus with 12 samples.

Results

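The insulin-like growth factor (IGF) axis was followed as 10 genes, chosen by symbol: the ligands Igf1 and Igf2, the receptors Igf1r and Igf2r, the binding proteins Igfbp2, Igfbp3, Igfbp4 and Igfbp5, and the insulin receptor substrates Irs1 and Irs2. All 10 were measured, among 19938 genes with a transcript cluster (the array's unit for a gene) annotated to exactly 1 symbol. The cells were C2i-Myog, a stable line made from mouse C2C12 myoblasts in which doxycycline switches on a Flag-tagged myogenin (Myog) cDNA. The 12 arrays form 4 groups of 3: control without addition, Dox with doxycycline at 0.2 µg/mL, SB with the p38α/β inhibitor SB203580 at 10 µM, and SB+Dox with both agents at those doses. All 4 groups carried the transgene and were held for 48 h in 1% horse serum with transferrin and insulin, each at 10 µg/mL, so every group received insulin from outside. The control label itself names no differentiation, and its 48 h come from the treatment text shared by all samples. Doxycycline was never given to cells without the transgene, and effects of the drug and of the induced factor therefore cannot be told apart. SB203580 was the only inhibitor used, so p38 inhibition and any other effect of the compound cannot be told apart either. The sources used here do not say if the line is a single clone or if replicates were separate cultures, and the spread behind every p-value may therefore be technical.

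IGF-I and IGF-II act through the IGF-I receptor, a tyrosine kinase that recruits the substrates Irs1 and Irs2 and through them the PI3 kinase and Akt pathway. The IGF-II receptor carries IGF-II to lysosomes and does not signal as a kinase. Binding proteins hold the ligands outside the cell, where proteases release them. In muscle cultures the axis is known for driving both proliferation and differentiation, and differentiating myoblasts make IGF-II themselves.

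Array values are log2 RMA signals, the submitters' normalised level of each cluster, and 1 log2 unit is a 2-fold difference. Array medians over the 21789 tested clusters lay between 5.29 and 5.44, and replicates correlated at 0.989 to 0.996 across clusters. A gene was called at an adjusted p under 0.05 (limma, Benjamini-Hochberg over all tested clusters), and changes carry their standard error (SE). Myog measured 9.66, 10.18 and 9.89 in control, 10.39, 10.30 and 10.40 in Dox, 6.93, 7.96 and 8.21 in SB and 8.10, 8.23 and 8.68 in SB+Dox. The labels describe SB cells as lacking Myog, yet its cluster stood above the array median on all 3 SB arrays. Doxycycline did not move it past the test without the inhibitor (log2 change 0.46, SE 0.25, adjusted p = 0.467) or with it (0.64, SE 0.25, adjusted p = 0.157). The latter passed without SB replicate 3 (0.89, adjusted p = 0.0311, against 0.0311 to 0.549 over 20 alternatives). The sources used here do not say if the probes of this cluster lie in the transgene cDNA. Its level may therefore leave out the induced transcript. All 12 skeletal muscle markers lay above the array median on every array, against 1 of 4 adipocyte, 0 of 4 osteoblast and 0 of 3 haematopoietic markers. Of 4 chondrocyte markers, 2 to 3 did so, depending on the group.

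Most of what doxycycline moved in the axis went down: Irs1, Igfbp2 and Igfbp5 fell, with 7 members not called. Igfbp2 and Igfbp5 are neighbours on chromosome 1 in the RefSeq annotation, on opposite strands and with 0 annotated genes between them. The promoter windows of these 3 genes are shown because all 3 were called lower in Dox against control. That of Igf1 is shown because it held more of the searched motifs than any other window of a member. Each window is the 250 bases before a RefSeq start (build GRCm38.p6), read 5′ to 3′ on the gene's strand, with matches to the searched motifs in capitals. They lie at chr1:82291440-82291689 (Irs1, minus strand), chr1:72824230-72824479 and chr1:72825137-72825386 (Igfbp2, plus strand), chr1:72874866-72875115 (Igfbp5, minus strand) and chr10:87860861-87861110 (Igf1, plus strand).
Irs1: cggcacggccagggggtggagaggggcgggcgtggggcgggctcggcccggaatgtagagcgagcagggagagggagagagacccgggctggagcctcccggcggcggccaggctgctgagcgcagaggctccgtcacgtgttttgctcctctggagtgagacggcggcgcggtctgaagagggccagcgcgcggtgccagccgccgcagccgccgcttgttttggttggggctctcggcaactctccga
Igfbp2, first start: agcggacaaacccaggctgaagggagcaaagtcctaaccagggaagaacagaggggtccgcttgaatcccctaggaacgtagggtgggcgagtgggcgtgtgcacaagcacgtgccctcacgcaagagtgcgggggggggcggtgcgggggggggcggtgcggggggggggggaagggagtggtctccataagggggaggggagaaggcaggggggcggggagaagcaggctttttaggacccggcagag
Igfbp2, second start: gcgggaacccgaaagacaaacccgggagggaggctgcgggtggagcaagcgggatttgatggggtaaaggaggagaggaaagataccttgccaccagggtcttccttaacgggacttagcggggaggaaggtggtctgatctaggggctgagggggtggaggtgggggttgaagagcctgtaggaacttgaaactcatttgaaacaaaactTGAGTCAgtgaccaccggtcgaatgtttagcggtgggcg
Igfbp5: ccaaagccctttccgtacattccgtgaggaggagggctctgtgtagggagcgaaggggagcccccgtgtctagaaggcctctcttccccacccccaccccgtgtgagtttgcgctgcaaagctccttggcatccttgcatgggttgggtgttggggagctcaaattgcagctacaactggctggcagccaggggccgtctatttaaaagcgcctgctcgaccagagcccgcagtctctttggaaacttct
Igf1: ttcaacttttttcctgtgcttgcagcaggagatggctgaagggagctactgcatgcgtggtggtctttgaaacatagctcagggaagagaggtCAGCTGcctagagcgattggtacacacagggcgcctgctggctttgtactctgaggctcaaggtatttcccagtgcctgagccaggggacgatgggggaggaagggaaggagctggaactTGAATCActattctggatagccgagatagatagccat
The motifs searched, on both strands, were CAGCTG and CAGGTG (E-boxes of the kind bound by myogenic bHLH factors), the core of MEF2 sites, TGANTCA (AP-1) and GTAAACA (forkhead). None of them overlapped another in these windows. Irs1, Igfbp5 and the first Igfbp2 window held 0 matches. The second Igfbp2 window held 1 TGANTCA, reading TGAGTCA and beginning at base -39 from the start. The Igf1 window held 1 CAGCTG beginning at -157 and 1 TGANTCA, reading TGAATCA, beginning at -37. Over the 14 windows of the 10 members, CAGCTG matched 1, CAGGTG 2 (Igf2r and Igfbp3), TGANTCA 2, and the others 0. The shares among all 32851 windows of this length were 13% for CAGCTG, 17.2% for CAGGTG, 3.2% for the MEF2 core, 6.75% for TGANTCA and 3.17% for GTAAACA. A match is only a run of letters, and windows outside these 250 bases were not searched.

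**Figure D1:**
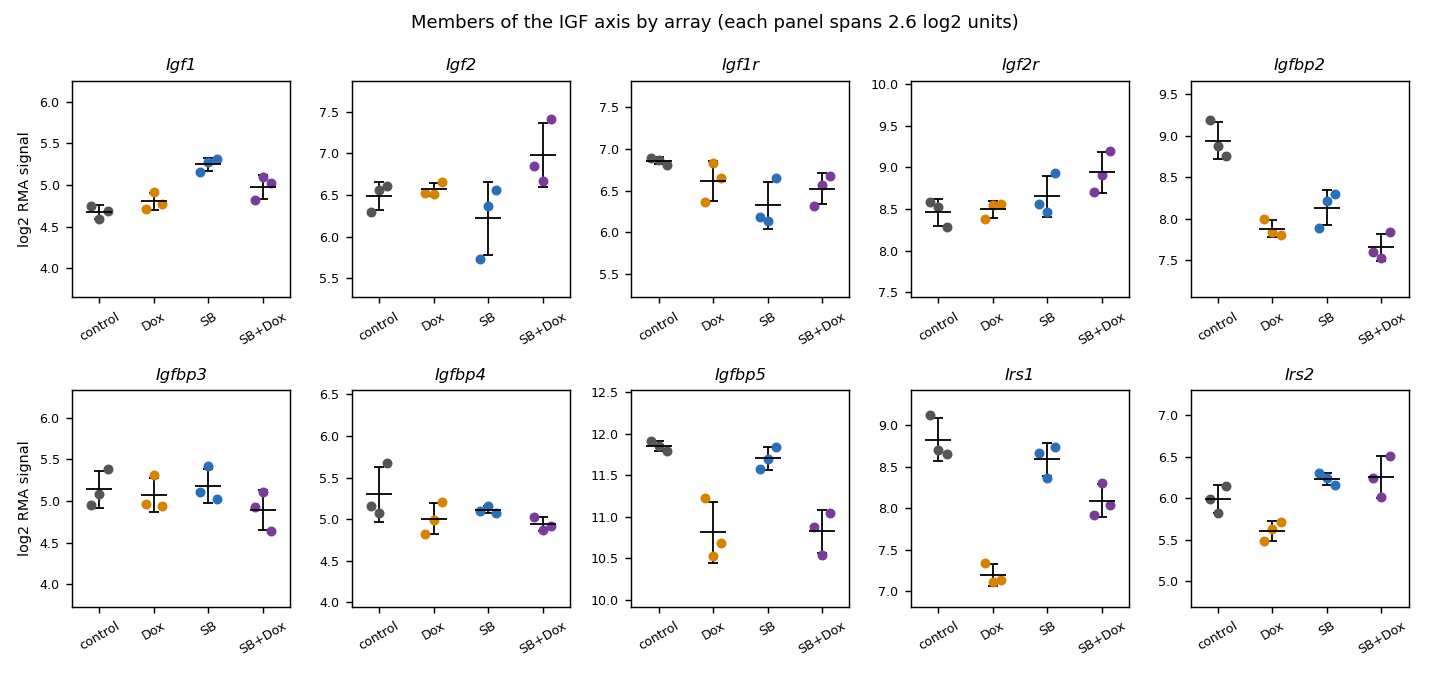
Log2 RMA signal (vertical axis) of the 10 members on each array, by group (horizontal axis). Points are arrays and black bars the mean and SD of 3. Irs1 is lowest on the 3 Dox arrays, Igfbp5 is lower on all 6 arrays with doxycycline than on the 6 without it, and Igfbp2 is highest in control.

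Dox against control asks what doxycycline did in these transgene-carrying cells without SB203580. Irs1, the substrate that links the IGF-I and insulin receptors to PI3 kinase, measured 9.12, 8.70 and 8.64 in control and 7.34, 7.11 and 7.13 in Dox. The 3 Dox arrays all lay more than 1 log2 unit below the 3 control arrays. Irs1 fell 3.09-fold (log2 change -1.63, SE 0.14, adjusted p = 2.16e-05). Igfbp2, a secreted binding protein with a preference for IGF-II, measured 9.18, 8.88 and 8.75 in control and 7.99, 7.84 and 7.81 in Dox. It fell 2.08-fold with no overlap (log2 change -1.06, SE 0.13, adjusted p = 2.48e-04). Igfbp5, the binding protein that myoblasts induce as they differentiate, measured 11.91, 11.85 and 11.79 in control and 11.23, 10.53 and 10.69 in Dox. It fell 2.05-fold (log2 change -1.04, SE 0.16, adjusted p = 0.00114), again with every Dox array below every control array. These 3 calls held in all 20 alternatives tried for each.

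Of the 10 members 0 rose and 3 fell with doxycycline alone, and at an unadjusted p under 0.05 limma gave 0 higher and 4 lower. Of all tested clusters 5.31% were called at the adjusted threshold, 1.43% raised and 3.88% lowered. Their share at the unadjusted p was not counted. The median change was -0.27 over the members and 0.01 over all tested clusters, on the log2 scale. Irs2, the second substrate, stood at 5.99, 5.82 and 6.15 in control and 5.48, 5.63 and 5.72 in Dox, without overlap, but did not pass (log2 change -0.38, SE 0.13, adjusted p = 0.121). Igf1, Igf2, Igf1r, Igf2r, Igfbp3 and Igfbp4 had changes of -0.29 to 0.13. The 2 ligands changed by 0.13 (Igf1, 95% interval -0.08 to 0.34) and 0.08 (Igf2, -0.34 to 0.51). Intervals here are per gene and not adjusted for the number of genes.

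SB+Dox against SB asks the same of doxycycline when SB203580 was present throughout. Igfbp5 measured 11.57, 11.69 and 11.84 in SB and 10.88, 10.54 and 11.05 in SB+Dox, without overlap. It fell 1.84-fold (log2 change -0.88, SE 0.16, adjusted p = 0.00399), a call that held in all 20 alternatives. The 2 doxycycline changes of Igfbp5 differed by 0.16 (95% interval -0.33 to 0.65, adjusted p = 0.831). Igfbp2 measured 7.89, 8.21 and 8.30 in SB and 7.60, 7.53 and 7.84 in SB+Dox. It fell 1.39-fold (log2 change -0.48, SE 0.13, adjusted p = 0.0433), just inside the threshold. Igfbp2 was called in 9 of 20 alternatives, with adjusted p between 0.0116 and 0.153. It was lost when each array was centred on its median (-0.40, adjusted p = 0.136), with every cluster of the array tested (0.112) and with only the compared groups (0.0767). It was also lost without control replicate 2 (adjusted p = 0.0563), Dox replicate 1 (0.0536), 2 (0.0552) or 3 (0.0537), SB replicate 2 (0.151) or 3 (0.0855), or SB+Dox replicate 1 (0.118) or 2 (0.153).

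Igf2, the ligand that myoblasts make during differentiation, went up in this comparison. It measured 5.73, 6.37 and 6.57 in SB and 6.85, 6.67 and 7.41 in SB+Dox, every SB+Dox array above every SB array. Igf2 rose 1.69-fold (log2 change 0.76, SE 0.20, adjusted p = 0.0321). The SB arrays were uneven, and SB replicate 1 was the lowest of all 12. Without SB replicate 1 the change was 0.51 (adjusted p = 0.141). The call was also lost with every cluster tested (adjusted p = 0.107) and with only the compared groups (0.111), and without SB replicate 2 (0.83, adjusted p = 0.0617), SB+Dox replicate 1 (0.82, adjusted p = 0.0511) or SB+Dox replicate 3 (0.54, adjusted p = 0.169), over a range of 0.00605 to 0.169 in 20 alternatives. The mean of the 12 skeletal muscle markers ran from 8.97 to 9.60 in SB and from 9.82 to 10.04 in SB+Dox. By group means 9 of the 12 were higher in SB+Dox and 3 lower (Myod1, Myf5 and Cdh15), and their part in the result was not tested. In such bulk RNA, fewer cells of a type and less RNA per cell cannot be told apart. The values of 9.90 to 10.28 in control and 10.16 to 10.34 in Dox overlapped. Between these 2 groups, 9 of the 12 markers had the higher mean in Dox and 3 the lower (Cdh15, Myf5 and Tnnt1).

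Irs1 measured 8.67, 8.36 and 8.73 in SB and 7.92, 8.31 and 8.04 in SB+Dox, without overlap. It did not pass by a narrow margin (log2 change -0.50, SE 0.14, adjusted p = 0.0502). With the replicate number as a block, fitted over all groups at once, it passed (adjusted p = 0.0457). The check of pairing held for these 2 groups but not for every pair of groups in that fit. The block is therefore not a paired test of SB and SB+Dox alone. Irs1 also passed after quantile normalisation (0.021), with dim clusters left out (0.0375) and with the trend and robust options (0.0317). So it did without control replicate 1 (0.0297) or 3 (0.0482), SB replicate 2 (0.0396) or SB+Dox replicate 2 (0.036), with 0.021 to 0.166 over 20 alternatives. In total 1 of 10 members rose and 2 fell, against 7.11% of all tested clusters called (4.40% raised, 2.71% lowered), and after centring each array on its median 1 rose and 1 fell. The median change was -0.22 over the members and -0.04 over all tested clusters. Igf1 lay lower on all 3 SB+Dox arrays, at 4.82, 5.09 and 5.03 against 5.16, 5.27 and 5.31 in SB, and did not pass (log2 change -0.27, adjusted p = 0.128). The changes of Igf1r, Igf2r, Igfbp3, Igfbp4 and Irs2 lay between -0.29 and 0.29.

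**Figure D2:**
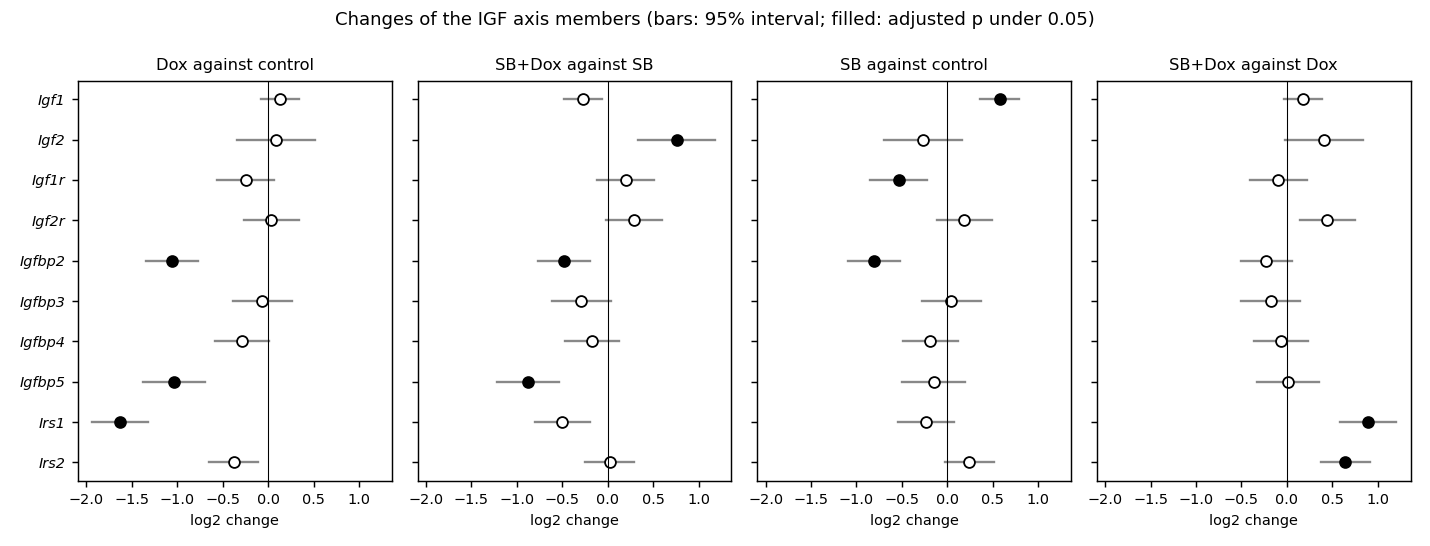
Log2 change (horizontal axis) of each member (vertical axis) in 4 comparisons. Points are estimates, filled where adjusted p was under 0.05, and bars are 95% intervals. Igfbp5 is filled in both doxycycline comparisons and Irs1 only in the one without the inhibitor, where it lies at -1.63 against -0.50 with it.

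The doxycycline change of Irs1 differed with and without SB203580. The difference, given by the interaction of the 2 agents, was 1.13 (log2, SE 0.20, adjusted p = 0.0231), meaning a smaller fall in the presence of the inhibitor. Irs1 was the only member called for it, 1 of 10, and 0.895% of all tested clusters were called (0.725% above 0, 0.170% below). It was lost with every cluster tested (adjusted p = 0.123), and without control replicate 1 (0.98, adjusted p = 0.0539), Dox replicate 2 (1.09, 0.0655), SB replicate 1 (1.17, 0.0503), SB replicate 2 (1.02, 0.0761), SB+Dox replicate 2 (1.02, 0.0532) or SB+Dox replicate 3 (1.16, 0.0547), and over 19 alternatives adjusted p ran from 0.0106 to 0.123. A second, dimmer Irs1 cluster measured 4.52, 4.23 and 4.02 in control, 3.64, 3.23 and 3.43 in Dox, 4.21, 3.82 and 4.25 in SB and 4.15, 3.62 and 3.80 in SB+Dox. These levels lie below the array medians, and no background level was measured. On that cluster Irs1 fell in Dox against control (log2 change -0.82, adjusted p = 0.00683), while the interaction did not pass (0.58, adjusted p = 0.334). Ordered by mean, the brighter cluster ran from control (8.82 ± 0.26, SD, n = 3) through SB (8.59 ± 0.20) and SB+Dox (8.09 ± 0.20) to Dox (7.19 ± 0.13), and of the neighbours only SB+Dox and Dox differed past the test.

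SB against control asks what SB203580 did without doxycycline, and Myog was 4.63-fold lower in SB (log2 change -2.21, SE 0.25, adjusted p = 9.39e-05). Igf1, the ligand IGF-I, measured 4.75, 4.59 and 4.68 in control and 5.16, 5.27 and 5.31 in SB, with every SB array above every control array. It rose 1.49-fold (log2 change 0.58, SE 0.10, adjusted p = 0.00252), in all 20 alternatives. Its cluster sat near the middle of each array, between the 35.9th and the 49.8th percentile of tested clusters, where array folds can be compressed. Igfbp2 fell 1.75-fold, from 9.18, 8.88 and 8.75 to 7.89, 8.21 and 8.30 (log2 change -0.80, SE 0.13, adjusted p = 0.002), also in all 20. Igf1r, the signalling receptor, measured 6.90, 6.86 and 6.81 in control and 6.18, 6.14 and 6.65 in SB, with SB replicate 3 nearest to control. It fell 1.45-fold (log2 change -0.54, SE 0.15, adjusted p = 0.0422). That call was lost with every cluster tested (adjusted p = 0.124), with only the compared groups (0.0581), and without control replicate 1 (0.126), 2 (0.114) or 3 (0.0838), Dox replicate 3 (0.0545), SB replicate 1 (0.154) or 2 (0.194), or SB+Dox replicate 2 (0.058), and adjusted p ran from 0.00579 to 0.194 over 20 alternatives.

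In this comparison 1 of 10 members rose and 2 fell, and 6.38% of all tested clusters were called (2.51% raised, 3.87% lowered). The median change was -0.17 over the members and 0.03 over all tested clusters. Irs2 measured 6.30, 6.24 and 6.15 in SB and 5.99, 5.82 and 6.15 in control. The lowest SB array (6.1546) lay just above the highest control array (6.1504), and Irs2 did not pass (log2 change 0.24, adjusted p = 0.352). Igf2, Igf2r, Igfbp3, Igfbp4, Igfbp5 and Irs1 had changes of -0.26 to 0.19. Igfbp5, which fell with doxycycline, changed by -0.15 with the inhibitor (95% interval -0.49 to 0.20). The muscle marker mean was lower on all 3 SB arrays than on the control arrays, 11 of the 12 markers being lower by group means and Myf5 higher, and its part in these changes was not tested.

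SB+Dox against Dox asks what the inhibitor did in cells given doxycycline. The Myog cluster was 4.09-fold lower in SB+Dox (log2 change -2.03, SE 0.25, adjusted p = 8.86e-05), and the part of Myog in the changes of the members was not tested. The muscle marker mean was lower on all 3 SB+Dox arrays (9.82 to 10.04) than on the Dox arrays (10.16 to 10.34). By group means 9 of the 12 markers were lower in SB+Dox and 3 higher, and their part was not tested either. Both substrates rose. Irs1 went from 7.34, 7.11 and 7.13 in Dox to 7.92, 8.31 and 8.04 in SB+Dox, 1.86-fold higher (log2 change 0.90, SE 0.14, adjusted p = 7.40e-04). Irs2 went from 5.48, 5.63 and 5.72 to 6.24, 6.01 and 6.51, 1.56-fold higher (log2 change 0.64, SE 0.13, adjusted p = 0.00324). On both genes all 3 SB+Dox arrays lay above all 3 Dox arrays, and both calls held in all 20 alternatives. The dimmer Irs1 cluster was not called in this comparison (log2 change 0.42, adjusted p = 0.14). Irs1 and Irs2 were the only members called, with 0 lowered, and at an unadjusted p under 0.05 limma gave 3 higher and 0 lower. Of all tested clusters 10.4% were called at the adjusted threshold, 6.97% raised and 3.43% lowered. Their share at the unadjusted p was not counted. Igf2r, the clearance receptor, stood at 8.37, 8.55 and 8.56 in Dox and at 8.71, 8.91 and 9.20 in SB+Dox, without overlap. It missed the threshold (log2 change 0.44, SE 0.14, adjusted p = 0.0631), and passed with dim clusters left out (0.0476), with the trend and robust options (0.0396), with only the compared groups (0.0498), and without SB replicate 3 (0.0299) or SB+Dox replicate 1 (0.0342), over a range of 0.0299 to 0.272. Igfbp5 did not pass, with a change of 0.01 (95% interval -0.33 to 0.36).

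SB+Dox against control compares cells given both agents with cells given none, and the Myog cluster was 2.98-fold lower in the former (log2 change -1.58, adjusted p = 0.00162). Igfbp2 was 2.43-fold lower (log2 change -1.28, SE 0.13, adjusted p = 5.66e-05), the largest change of a member in this comparison. Igfbp5 was 2.03-fold lower (log2 change -1.02, SE 0.16, adjusted p = 0.00154) and Irs1 1.66-fold lower (log2 change -0.73, SE 0.14, adjusted p = 0.00699). All 3 held in all 20 alternatives, but the dimmer Irs1 cluster was not called here (log2 change -0.40, adjusted p = 0.228). Of the 10 members 0 rose and 3 fell, and at an unadjusted p under 0.05 limma gave 3 higher and 5 lower. Of all tested clusters 5.26% were called at the adjusted threshold, 2.84% raised and 2.42% lowered. Their share at the unadjusted p was not counted. Igf2r at 8.71, 8.91 and 9.20 lay above the control arrays at 8.58, 8.53 and 8.28 without passing (log2 change 0.48, adjusted p = 0.0709). It passed with the trend and robust options (0.0425), and without SB replicate 3 (0.0339) or SB+Dox replicate 1 (0.0445), over a range of 0.0339 to 0.318. Igf1 (0.31, adjusted p = 0.102), Igf2 (0.49, adjusted p = 0.223), Igf1r (-0.34, adjusted p = 0.268) and Igfbp4 (-0.36, adjusted p = 0.2) also stood apart from control on all 3 arrays without passing. Across the 5 comparisons groups of 3 did not overlap for 4 of 10 members in Dox against control (20.0% of all tested clusters), 4 in SB against control (20.0%), 8 in SB+Dox against control (23.2%), 6 between SB+Dox and SB (25%) and 4 between SB+Dox and Dox (29.1%). These comparisons share arrays and are not independent.

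Of the 10 members 7 were called in at least 1 of the 5 comparisons, against 17.7% of all tested clusters. Those called in none were Igf2r, Igfbp3 and Igfbp4. Igfbp3, the main carrier of IGF in serum, ranged from 4.64 to 5.42 over all 12 arrays, and its group means spanned 0.29. Igfbp4, a binding protein that inhibits IGF action, ranged from 4.82 to 5.67, and its group means spanned 0.36. Like Igf1, both lay near the middle of the arrays, the 3 together between the 35.9th and 55.7th percentile, and small changes at such levels may not be detectable. By contrast, the group means of Irs1 spanned 1.63, those of Igfbp2 1.28 and those of Igfbp5 1.04.

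Genes most like these 3 were named by Pearson correlation over the 12 arrays, among 846 genes whose group means spanned at least 1 log2 unit. The arrays share their 4 groups, so the coefficients are descriptions. Irs1 was closest to Spry2, a Sprouty feedback inhibitor of receptor tyrosine kinases (0.941), Prrx1, a homeobox factor of mesenchyme (0.936), and Vwa5a (0.929). Igfbp2 was closest to Aspn, a small matrix proteoglycan (0.947), Dpyd, the enzyme that breaks down pyrimidines (0.936), and the carbonic anhydrase gene Car1 (0.92). Igfbp5 was closest to the scavenger receptor gene Colec12 (0.943), Cyp1b1, a cytochrome P450 (0.939), and Car3, the muscle carbonic anhydrase (0.935).

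**Figure D3:**
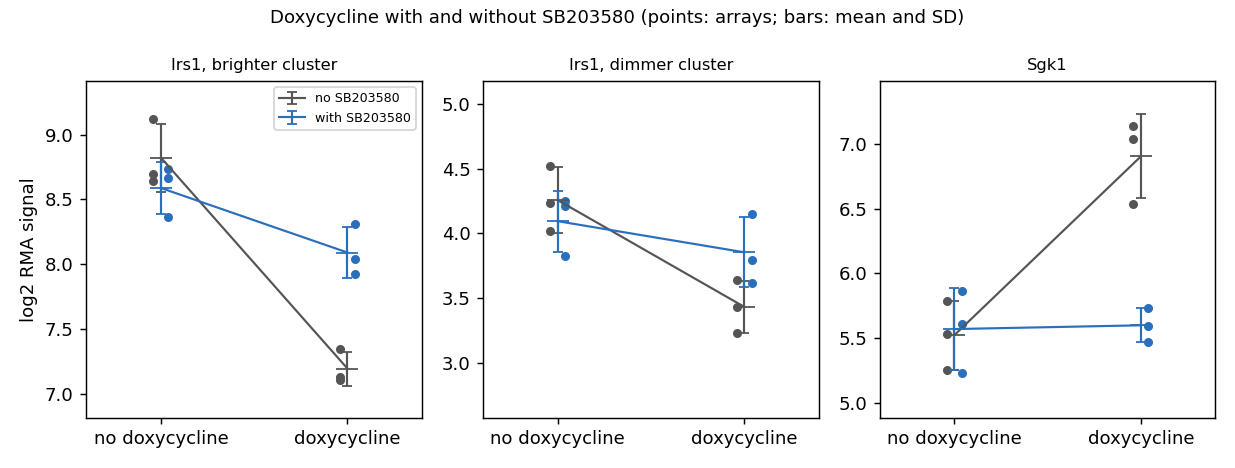
Log2 RMA signal (vertical axis) without and with doxycycline (horizontal axis), in the absence (grey) and presence (blue) of SB203580, for both Irs1 clusters and Sgk1. Points are arrays, and lines join means with SD bars. The grey and blue lines part most for Sgk1 and the brighter Irs1 cluster, with interactions of -1.35 and 1.13.

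Beyond the members, 54 further genes of the pathway were listed, and 49 had a cluster with exactly 1 symbol. Of these 49, 5 rose and 3 fell with doxycycline alone (1.43% and 3.88% of all tested clusters), where the median change was -0.05 (0.01 over all tested clusters). With the inhibitor alone 4 rose and 8 fell, against 2.51% and 3.87% of all tested clusters (median -0.06, against 0.03). From SB to SB+Dox 8 rose and 4 fell, against 4.40% and 2.71% (median 0.02, against -0.04). From Dox to SB+Dox 8 rose and 8 fell, against 6.97% and 3.43% (median 0.02, against -0.03). Between SB+Dox and control 2 rose and 3 fell, against 2.84% and 2.42% (median 0.03, against -0.02). Of the list, 25 genes were called in at least 1 of the 5 comparisons and 24 in none, and 17.7% of all tested clusters were called in at least 1. The 12 genes named here were among the 5 largest called changes of at least 1 comparison, and Igfbp6, Igfbp7 and Stc1 were added after their values were seen.

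Of the listed genes that act outside the cell, Htra1, a secreted protease that cleaves Igfbp5, measured 8.34, 8.21 and 9.12 in control and 7.48, 6.97 and 8.04 in Dox. It fell 2.08-fold with doxycycline (log2 change -1.06, SE 0.25, adjusted p = 0.0181) and rose 1.99-fold from Dox to SB+Dox (adjusted p = 0.0159). The fall was lost with every cluster tested (adjusted p = 0.0862) or only the compared groups (0.0619), and without control replicate 3 (-0.78, adjusted p = 0.0839), Dox replicate 1 (-1.05, 0.0561) or Dox replicate 2 (-0.80, 0.0893), with 0.00102 to 0.0893 over 20 alternatives. The difference between SB+Dox and Dox was lost with every cluster tested (0.0685), and without Dox replicate 2 (0.0808), SB+Dox replicate 1 (0.059) or 3 (0.058), over a range of 0.00102 to 0.0808. Igfbp6, a binding protein selective for IGF-II, fell 1.62-fold in Dox against control (log2 change -0.70, adjusted p = 0.0156), from 8.76, 8.41 and 8.48 to 8.09, 8.01 and 7.47. That call was lost with every cluster tested (0.0674), and without control replicate 1 (0.0907) or Dox replicate 3 (0.0784), over a range of 0.00264 to 0.0907.

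Igfbp7, a secreted relative of the binding proteins, rose in both doxycycline comparisons, where the members Igfbp2 and Igfbp5 fell, and fell with the inhibitor alone, as Igfbp2 did. It measured 8.99, 9.17 and 9.22 in control, 9.60, 9.45 and 9.51 in Dox, 8.39, 8.39 and 8.55 in SB and 8.95, 8.80 and 8.98 in SB+Dox. It rose 1.38-fold from SB to SB+Dox (adjusted p = 0.00772) and fell 1.61-fold with the inhibitor alone (log2 change -0.69, SE 0.10, adjusted p = 5.39e-04). From Dox to SB+Dox it fell 1.53-fold (log2 change -0.61, adjusted p = 6.13e-04). Without the inhibitor it rose 1.31-fold (adjusted p = 0.024). This was lost after median centring (0.0678), with every cluster tested (0.0576), without control replicate 1 (0.146) or 2 (0.0572), or without Dox replicate 1 (0.0988) or 3 (0.0756), over a range of 0.00879 to 0.146. Stc2, a stanniocalcin that inhibits the IGF-releasing protease Pappa, measured 7.24, 7.12 and 7.22 in SB+Dox against 6.67, 6.44 and 6.69 in control. It was 1.51-fold higher there (log2 change 0.59, SE 0.10, adjusted p = 0.00187). Pappa itself was 1.49-fold lower in the same comparison (log2 change -0.58, adjusted p = 0.011). Leaving out control replicate 2 (0.0556) or SB+Dox replicate 2 (0.0639) ended that call, over a range of 0.00275 to 0.0639. Pappa was also called lower in SB against control (log2 change -0.48, adjusted p = 0.0292). It was not called between SB+Dox and SB (-0.10, adjusted p = 0.672). Its levels, 4.42, 4.26 and 4.49 in SB+Dox and 4.95, 5.08 and 4.88 in control, lie below the array medians. Stc1 measured 4.42, 4.55 and 4.52 in SB and 4.02, 4.11 and 3.75 in control. These levels lie below the array medians, and no background level was measured. Stc1 was 1.45-fold higher in SB (adjusted p = 0.0182), which was lost after median centring (0.0562), with every cluster tested (0.0627), without control replicate 3 (0.0791) or SB replicate 2 (0.0785), over a range of 0.00868 to 0.0791.

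Among receptors and signalling genes, Insr, the insulin receptor, measured 6.72, 6.94 and 6.79 in Dox and 7.66, 7.56 and 7.78 in SB+Dox. It rose 1.8-fold (log2 change 0.85, SE 0.14, adjusted p = 7.40e-04), beside the rises of Irs1 and Irs2 in that comparison. Pik3r3, a regulatory subunit of PI3 kinase, measured 6.09, 6.13 and 5.49 in control and 5.46, 5.40 and 4.75 in Dox. It stood at 6.87, 6.91 and 7.15 in SB and 5.90, 6.10 and 5.90 in SB+Dox. It rose 2.1-fold in SB (log2 change 1.07, SE 0.19, adjusted p = 0.00264) and fell 2.02-fold when doxycycline was added to it (adjusted p = 0.004). From Dox to SB+Dox it rose 1.7-fold (adjusted p = 0.0144). Its 1.63-fold fall from control to Dox (log2 change -0.70, adjusted p = 0.0405) was called in 9 of 20 alternatives, over a range of 0.0094 to 0.198. Deptor, an inhibitor of mTOR, measured 7.60, 7.88 and 7.67 in control, 8.63, 8.84 and 8.53 in Dox, 6.40, 6.36 and 6.86 in SB and 7.75, 7.83 and 7.87 in SB+Dox. It fell 2.26-fold with SB (adjusted p = 8.35e-05), rose 2.42-fold from SB to SB+Dox (adjusted p = 9.00e-05) and rose 1.93-fold from control to Dox (adjusted p = 4.67e-04). Eif4ebp1, the translation repressor that mTOR phosphorylates, rose 1.83-fold from SB to SB+Dox (log2 change 0.87, SE 0.11, adjusted p = 5.38e-04). It was lower in SB than in control (-0.61, adjusted p = 0.0046), and SB+Dox against control was not called (0.26, adjusted p = 0.284). Trib3, a pseudokinase that binds Akt, fell 2.85-fold with SB (log2 change -1.51, SE 0.30, adjusted p = 0.00617) and rose 3.51-fold from SB to SB+Dox (adjusted p = 0.0019).

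Of the remaining named genes, Fbxo32, the ubiquitin ligase atrogin-1 of muscle wasting, measured 6.42, 6.50 and 6.65 in control, 7.16, 7.65 and 8.04 in SB and 6.57, 6.78 and 6.79 in SB+Dox. It rose 2.14-fold in SB (log2 change 1.09, SE 0.16, adjusted p = 8.70e-04) and fell 1.87-fold from SB to SB+Dox (adjusted p = 0.00351). Ddit4, an inhibitor of mTOR signalling, fell 1.47-fold between control and SB+Dox (log2 change -0.56, SE 0.11, adjusted p = 0.00685). It was also lower in SB than in control (-0.49, adjusted p = 0.0138), and SB+Dox against SB was not called (-0.07, adjusted p = 0.749). Sgk1, a kinase related to Akt, measured 5.53, 5.79 and 5.25 in control, 6.53, 7.04 and 7.14 in Dox, 5.87, 5.61 and 5.23 in SB and 5.59, 5.73 and 5.47 in SB+Dox. The 3 Dox arrays stood above the other 9. Sgk1 rose 2.6-fold with doxycycline alone (log2 change 1.38, SE 0.18, adjusted p = 3.28e-04), and it was the only gene of the list called for the interaction (-1.35, SE 0.26, adjusted p = 0.0275). Socs2, a suppressor of growth hormone and cytokine signalling, measured 6.29, 6.37 and 6.61 in control, 7.10, 6.98 and 7.31 in Dox, 4.89, 4.87 and 4.88 in SB and 5.10, 4.79 and 5.21 in SB+Dox. It fell 2.92-fold with SB alone (log2 change -1.54, SE 0.12, adjusted p = 5.18e-06) and 4.27-fold in SB+Dox against Dox (log2 change -2.10, adjusted p = 1.29e-07), with no overlap in either.

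**Figure D4:**
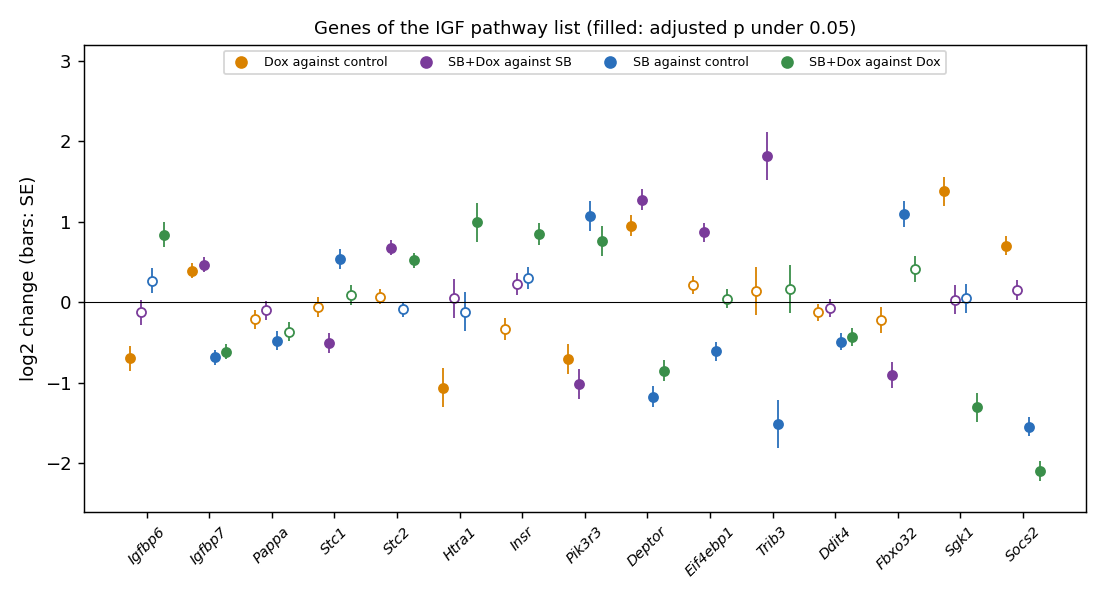
Log2 change with its SE (vertical axis) of 15 genes of the pathway list (horizontal axis) in 4 comparisons, by colour, filled where adjusted p was under 0.05. Deptor, Igfbp7 and Pik3r3 are filled in all 4. Deptor and Igfbp7 lie below 0 in both comparisons that add SB203580 and above 0 in both that add doxycycline, and Pik3r3 the other way round. Socs2 has the lowest value, -2.10 in SB+Dox against Dox.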

How the data were processed

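RNA of 12 samples was read on whole-transcript arrays from Affymetrix. As the submitters' processing notes give it, RMA in Affymetrix Expression Console made the log2 values that the authors deposited, 1 per transcript cluster and array. The sources used here give no version or genome build. The table held 35557 clusters, of which 21789 had exactly 1 symbol, 1621 several and 12147 none, and 21698 of the 21789 were matched to RefSeq by Entrez identifier. Arrays have no depth, and their number, 3 a group, limits the precision.

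All 12 arrays entered a limma 3.58.1 fit with a mean for each group, in R 4.3.3, with 8 residual and 6.56 prior degrees of freedom, which was tested on simulated data. P-values were adjusted within each comparison over the 21789 clusters. For each gene the cluster with the highest mean was used. The members, lists and motifs were chosen with earlier results of these data known. Named pathway genes were up to 5 called genes with the largest change in each comparison. SB and SB+Dox arrays of equal number deviated together from their group means (correlations 0.436, 0.194 and 0.493). For Dox and SB+Dox the correlations were lower (0.088, 0.282 and 0.148), though each was also highest at equal number. The other pairs of groups did not show this for every number. The replicate block was still fitted over all 4 groups at once. Alternatives were the replicate block, median centring, quantile normalisation, a filter on dim clusters, eBayes with trend and robust options, all clusters tested, only the groups compared, the mean of a gene's clusters, and each array left out. Promoters and microRNAs are RefSeq's, build GRCm38.p6.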

Additional observations from a re-analysis of the deposited data

Results flagged for a closer look

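The change of Irs1 with doxycycline differed between cells with and without SB203580: the interaction term was 1.13 on the log2 scale (adjusted p = 0.0231 by limma), from -1.63 without the inhibitor to -0.50 with it, and Irs1 lay lower with doxycycline on all 3 arrays in both settings. The change of Sgk1 differed in the opposite direction, with an interaction term of -1.35 (adjusted p = 0.0275 by limma), from 1.38 without the inhibitor to 0.03 with it. The Sgk1 call was lost with every cluster tested (0.139), and without control replicate 1 (adjusted p = 0.0681) or 3 (0.0626), Dox replicate 2 (0.0718) or 3 (0.0587), SB replicate 1 (0.0721) or 2 (0.0855), or SB+Dox replicate 1 (0.0606) or 3 (0.0751), with 0.0103 to 0.139 over 19 alternatives.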

How the results depend on the processing

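Of the 15 called changes of members, 119 values under other settings gave 8 lost calls, and 180 values with 1 array left out gave 25, all with the sign kept. Of the 45 changes not called, 351 values under other settings gave 8 new calls and 3 changes of sign, and 540 with 1 array left out gave 8 and 16. A fit with a replicate block called 3, 4, 2, 3 and 3 members in SB against control, SB+Dox to SB, SB+Dox to Dox, Dox to control and SB+Dox to control. The block made 1 new call among the members, Irs1, and raised the pathway genes called for the interaction from 1 to 5. The share of all tested clusters called was counted in the main fit only, not under the block or the other alternatives.

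With every cluster of the array tested, 1 member was called between SB+Dox and SB and 0 for the interaction (5 at an unadjusted p under 0.05 by limma), and the pathway list gave 10 calls between SB+Dox and Dox, 3 between Dox and control and 0 for the interaction (12 at an unadjusted p under 0.05). The unadjusted counts are from the main fit, and the share of all clusters at that p was not counted. With only the compared groups fitted, 1 member was called between SB+Dox and SB. After median centring the list gave 5 calls between Dox and control. For the interaction it gave 2 after median centring, 2 without dim clusters, 2 with the mean of a gene's clusters and 3 with trend and robust options.

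With 1 array left out, called members numbered 2 to 3 (SB to control), 1 to 4 (SB+Dox to SB), 2 to 3 (SB+Dox to Dox), 3 (Dox to control), 3 to 4 (SB+Dox to control) and 0 to 1 (interaction). Called list genes numbered 9 to 14, 9 to 12, 10 to 18, 4 to 9, 3 to 5 and 0 to 2 in that order. Changes of sign were of uncalled values near 0: Igfbp3 in SB against control was -0.0076 after median centring and -0.0105 after quantile normalisation, Igfbp5 between SB+Dox and Dox was -0.0368 after quantile normalisation, and Mir483 between Dox and control was 0.02 after it. With 1 array left out, SB against control ran from -0.0755 to 0.1655 for Igfbp3 and from -0.2996 to 0.0011 for Igfbp4. Irs2 ran from -0.1053 to 0.1449 between SB+Dox and SB. Between SB+Dox and Dox, Igf1r ran from -0.22 to 0.0156, Igfbp4 from -0.1558 to 0.0326 and Igfbp5 from -0.131 to 0.2167. Between Dox and control, Igf2 ran from -0.012 to 0.1438, Igf2r from -0.0584 to 0.0937, Igfbp3 from -0.1856 to 0.0562 and Mir483 from -0.0774 to 0.1127. The interaction ran from -0.0663 to 0.2344 for Igfbp4 and from -0.2051 to 0.4332 for Myog. The cause of these changes was not tested, beyond the larger number of tests where every cluster entered. No background level was measured, which limits Igf1, Igfbp3, Igfbp4, Pappa, Stc1 (absent once dim clusters were left out) and the dimmer Irs1 cluster.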

Other observations

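Mir483, a microRNA gene that lies inside Igf2 in the RefSeq annotation, had a cluster of its own, examined after the other values were seen. Its mature forms are shown with the seed, bases 2 to 8, in capitals (RefSeq, build GRCm38.p6, minus strand of chromosome 7).
mmu-miR-483-5p: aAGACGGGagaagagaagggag
mmu-miR-483-3p: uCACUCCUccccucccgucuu
The cluster measured 6.45, 6.40 and 6.78 in control, 6.47, 6.50 and 6.63 in Dox, 6.92, 6.74 and 6.50 in SB and 6.41, 6.53 and 6.24 in SB+Dox. In each of the 5 comparisons the groups overlapped and the test was not passed. In SB+Dox against SB, where Igf2 rose by 0.76, Mir483 changed by -0.32 (SE 0.13, adjusted p = 0.159 by limma), and it passed without SB replicate 3 (-0.44, adjusted p = 0.0424). The sources used here do not say if its probes read the mature forms or the precursor.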
